A study of Homo sapiens with 38 samples.

Results

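The genes described here mark stages of T-cell development in the thymus: RAG1, RAG2 and DNTT of receptor gene assembly, PTCRA of the pre-T-cell receptor, CD1A and CD1E of the CD1 family, and the coreceptor genes CD4, CD8A and CD8B. These 9 genes, of 20037 protein-coding records on the nuclear chromosomes, were chosen by name. For each one, the regions listed for GATA3, BHLHE40 and H3K27ac were taken when they overlapped the RefSeq gene record or the 50 kb on either side of it. The study profiled Jurkat cells, an established line from a human T-cell acute lymphoblastic leukaemia, by ChIP-seq, in which an antibody pulls down the DNA bound by a protein or packed by a marked histone and that DNA is then sequenced. Its labels gave 38 samples in 19 groups of 2. The 3 groups used here carried a control lentivirus (Ctrl_LV), with no edit and no over-expression, and had been stimulated. The labels give PMA (50 ng/ml) together with ionomycin (500 ng/ml), agents that imitate T-cell receptor signalling, and the protocol includes puromycin selection of transduced cells. The stimulation time was 5 hours in the sample labels and 2 hours in the treatment protocol. All values therefore come from 1 cell line in 1 stimulated state, and no resting or primary thymocytes were among these groups.

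Both samples of a group share a single list without values per sample, so no spread between replicates and no test can be given. Depth is unknown. GATA3 was listed in 29009 regions, BHLHE40 in 26205 and H3K27ac in 113570. Coordinates are on hg38. The signal value of a region is the authors' own measure of enrichment, and ranks and percentiles of it hold within 1 list. As a check of the cell type, an H3K27ac region with a −log10 q of at least 5 lay within 1 kb of an end of the record for all 8 T-cell marker genes examined, for 1 of 6 B-cell markers (BLK) and for 0 of 6 myeloid markers, against 48.1% of all protein-coding records.

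In the thymus, precursors first assemble the T-cell receptor beta gene and pair its product with the pre-T-alpha chain. They then pass through a CD4 and CD8 double-positive stage with CD1 on the surface, where the alpha gene is assembled, before they keep one coreceptor. RAG1 and RAG2 together form the recombinase that cuts receptor gene segments, and DNTT (terminal deoxynucleotidyl transferase) adds untemplated bases at the joins. GATA3 is a zinc-finger factor needed at several of these steps, BHLHE40 is a basic helix-loop-helix repressor induced by T-cell activation, and H3K27ac marks active promoters and enhancers.

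The sequences just before the annotated start sites are shown for the genes whose starts the results turn on. RAG2, CD1A and CD8A had a GATA3 region over a start, whereas DNTT and PTCRA had none. Each is the 250 bases before a RefSeq start site on GRCh38.p14, read 5′ to 3′ on the strand of the gene. Capitals mark AGATAA or TGATAA, letters bound by GATA factors, on either strand, and CANNTG, the E-box bound by basic helix-loop-helix proteins. RAG2 (chr11:36598237-36598486, minus strand), CD1A (chr1:158248086-158248335, plus), CD8A at its outermost start (chr2:86808397-86808646, minus), DNTT (chr10:96304184-96304433, plus) and PTCRA (chr6:42915803-42916052, plus) read as follows.
RAG2: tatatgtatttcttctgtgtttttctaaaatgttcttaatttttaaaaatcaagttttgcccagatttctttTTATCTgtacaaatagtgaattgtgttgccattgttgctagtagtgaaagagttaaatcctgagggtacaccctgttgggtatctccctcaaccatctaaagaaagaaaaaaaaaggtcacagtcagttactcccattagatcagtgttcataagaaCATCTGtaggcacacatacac
CD1A: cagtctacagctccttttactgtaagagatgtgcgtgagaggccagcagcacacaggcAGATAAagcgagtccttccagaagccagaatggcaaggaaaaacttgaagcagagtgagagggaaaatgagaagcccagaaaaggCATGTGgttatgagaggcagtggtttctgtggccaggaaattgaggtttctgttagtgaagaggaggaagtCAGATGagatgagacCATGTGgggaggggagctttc
CD8A: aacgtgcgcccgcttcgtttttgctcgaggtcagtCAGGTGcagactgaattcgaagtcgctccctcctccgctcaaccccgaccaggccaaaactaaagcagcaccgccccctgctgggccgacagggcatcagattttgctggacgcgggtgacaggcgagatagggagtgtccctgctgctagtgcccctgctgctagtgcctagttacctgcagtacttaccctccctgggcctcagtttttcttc
DNTT: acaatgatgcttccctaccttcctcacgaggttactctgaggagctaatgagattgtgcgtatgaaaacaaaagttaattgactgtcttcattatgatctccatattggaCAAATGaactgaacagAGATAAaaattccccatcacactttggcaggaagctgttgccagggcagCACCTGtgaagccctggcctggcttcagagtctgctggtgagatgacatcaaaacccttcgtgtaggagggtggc
PTCRA: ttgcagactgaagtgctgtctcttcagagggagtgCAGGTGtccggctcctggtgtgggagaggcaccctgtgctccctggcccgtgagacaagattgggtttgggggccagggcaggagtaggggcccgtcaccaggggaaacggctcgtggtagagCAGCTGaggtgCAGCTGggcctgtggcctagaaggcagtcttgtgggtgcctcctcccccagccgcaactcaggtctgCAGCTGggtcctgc

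Counting its first printed base from the start site, AGATAA was found at -192 in CD1A, at -124 in DNTT and, on the opposite strand, at -178 in RAG2. It was not in the printed windows of CD8A and PTCRA, and TGATAA was in none of the 5. Of 35116 start-site windows in the RefSeq table, 9.17% held AGATAA, 6.66% held TGATAA and 61.8% held CANNTG. PTCRA held 4 copies of CANNTG, CD1A 3, DNTT 2, and RAG2 and CD8A 1 each. A match is a description of the letters and not a bound site. Distances given between a match and a summit are taken from the centre of the match.

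Start sites were listed for 7 members, and CD4 and CD8B were not in that table. Taking 250 bases before to 50 after a start, a GATA3 region overlapped a start-site window of 3 of the 7 (RAG2, CD1A and CD8A), against 20.6% of 15843 protein-coding genes. BHLHE40 did so for 3 of the 7 (RAG1, RAG2 and CD1A), against 47.4%. H3K27ac did so for 4 of the 7 (RAG1, CD1A, CD1E and CD8A), against 51.7%, and with a −log10 q of at least 5 for 3 of the 7 (RAG1, CD1A and CD1E), against 47.5%. PTCRA and DNTT had no region of any list there, a state shared by 44.8% of protein-coding genes. With 7 genes these shares are descriptions, and RAG1 counts only by its 1 listed start.

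Across the windows of all 9 members, after counting each region once, there were 50 GATA3, 31 BHLHE40 and 117 H3K27ac regions. Windows of neighbouring members overlap: 12 GATA3, 5 BHLHE40 and 24 H3K27ac regions belonged to 2 members at once, at RAG1 and RAG2 or at CD8A and CD8B. Every member had at least 1 region of each list, against 76.1% of protein-coding records for GATA3, 80.0% for BHLHE40 and 92.6% for H3K27ac. An H3K27ac region with a −log10 q of at least 5 was also found for all 9, against 79.5%. The median member had 7 GATA3 regions, 4 BHLHE40 regions and 15 H3K27ac regions, and the median protein-coding record had 2, 2 and 8. The median window was 123.8 kb for members and 124.1 kb for all records, so window size differed little between them.

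**Figure D1:**
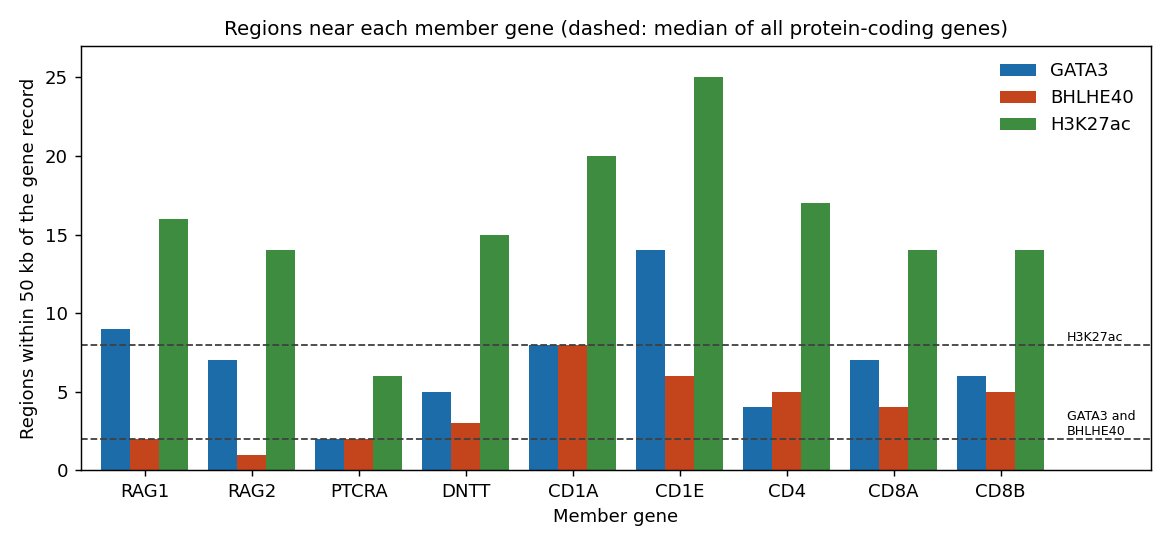
Number of GATA3 (blue), BHLHE40 (orange) and H3K27ac (green) regions within 50 kb of each member's gene record, with dashed lines at the median of all 20037 protein-coding records (2 for both factors, 8 for H3K27ac). CD1E has the most GATA3 regions, 14, and PTCRA the fewest, 2, while BHLHE40 runs from 1 at RAG2 to 8 at CD1A.

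For GATA3 the order from most to fewest was CD1E with 14 regions, RAG1 with 9, CD1A with 8, RAG2 and CD8A with 7 each, CD8B with 6, DNTT with 5, CD4 with 4 and PTCRA with 2. Counts that differ by 1 or 2 cannot be ranked without replicates. Per 100 kb of window, CD1E had 13.5 GATA3 regions, and 99.99% of protein-coding records had a lower density. PTCRA had 1.82 per 100 kb, above 65.3% of records. For BHLHE40 the most were at CD1A with 8, followed by CD1E with 6, CD4 and CD8B with 5 each, CD8A with 4, DNTT with 3, RAG1 and PTCRA with 2 each and RAG2 with 1. RAG2 thus combined a GATA3 count above 93.4% of protein-coding records with a BHLHE40 count above 20.0% of them. Both orders depended on the window. Within 10 kb, RAG1 and CD8B had 5 GATA3 regions each and CD1E had 4. DNTT and CD8A then had 3 each, RAG2 and CD4 had 2, and CD1A and PTCRA had 1. For BHLHE40, CD8B had the most within 10 kb, with 5, and CD1A and DNTT had 3 each.

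The factor regions had median signal values close to those of their lists. The median GATA3 signal value near the members was 11.4, against 11.2 in the whole list. For BHLHE40 the median signal value was 9.31, against 9.35. Other medians were higher near the members. The median −log10 q was 66.0 against 54.9 for GATA3 and 58.4 against 46.8 for BHLHE40. The median width was 772 bp against 596 bp for GATA3 and 753 bp against 739 bp for BHLHE40. Of the 50 GATA3 regions, 4 were in the strongest 10% of the list, and so were 3 of the 31 BHLHE40 regions. For H3K27ac the median signal value was 2.96, below the 3.31 of the whole list, while 52 of 117 regions (44.4%, 95% Wilson interval 35.8% to 53.5%) had a −log10 q of at least 5, against 25.1% of the whole list. All intervals cover counting only, since regions of 1 list are not replicates.

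**Figure D2:**
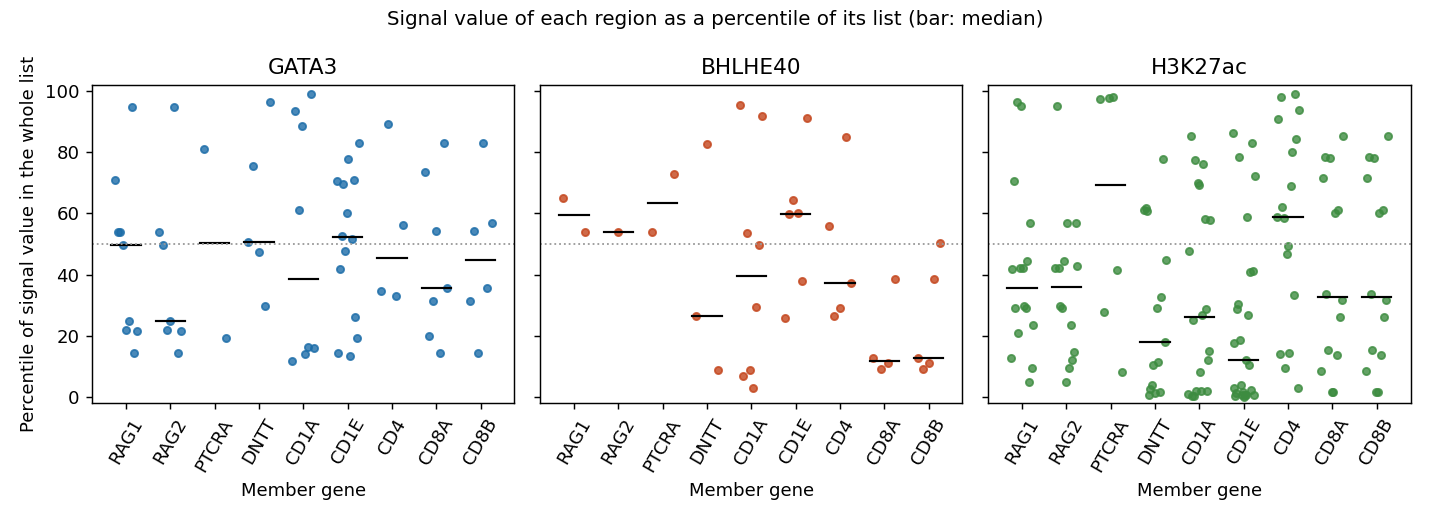
Signal value of every region near a member, as a percentile of all regions in its own list, for GATA3, BHLHE40 and H3K27ac; points are regions, black bars are medians over a member's regions and the dotted line is the 50th percentile. RAG1, RAG2, DNTT and CD1A each have 1 or more GATA3 points above the 90th percentile, and the BHLHE40 points of CD8A and CD8B lie at about the 50th or below it.

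At the RAG locus on chromosome 11 the strongest GATA3 region was at the start of RAG2. The GATA3 region spanned chr11:36597895-36598727 with a signal value of 48.9, rank 1544 of 29009, and its summit at 36598305 lay 69 bp before the RAG2 start. A BHLHE40 region, chr11:36597941-36598624, had its summit 8 bp from that of GATA3 and a signal value of 9.89, rank 12085 of 26205. The AGATAA match in the RAG2 window printed above was 106 bp from the GATA3 summit, and its single E-box was 51 bp from it. The place also lies inside the record of IFTAP, a gene of intraflagellar transport that overlaps RAG2. H3K27ac was below the median signal value of its list there. A region at chr11:36597471-36598168 overlapped the GATA3 region with a −log10 q of 6.78 and a signal value of 3.17, and its summit was 565 bp inside RAG2.

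RAG1 showed another arrangement at its 1 listed start, the lower-coordinate end of a record of 69.4 kb. Any other start inside that record was not examined. The annotated start of the RAG1 record was 81 bp from the record of TRAF6, which encodes a ubiquitin ligase of immune receptor signalling and lies on the opposite strand. A BHLHE40 region, chr11:36509140-36510648, peaked 115 bp before the RAG1 start, inside the TRAF6 record, with a signal value of 11.7. H3K27ac at chr11:36509670-36510329 was the strongest of the RAG1 window, with a signal value of 8.40 and a −log10 q of 32.9, rank 4231 of 113570. GATA3 had no region over this start, and its nearest summit was 5034 bp before it. The 30 bases at chr11:36510226-36510255 are shown because the centre of an E-box in them lay 2 bp from the BHLHE40 summit. They read as follows on the plus strand with the E-box in capitals.
RAG1: caggccaagcccCAGCTGcggacgccactg
Whether these regions belong to RAG1 or to TRAF6 cannot be told apart from the lists.

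Inside the RAG1 record a GATA3 region at chr11:36558206-36559365 coincided with H3K27ac at chr11:36558346-36559355, with summits 111 bp apart and no BHLHE40 region. The GATA3 signal value was 11.2 and the H3K27ac values were a signal of 7.47 and a −log10 q of 23.6. This was the second strongest H3K27ac region of the RAG1 window and the strongest of the RAG2 window. Of the 9 GATA3 regions around RAG1, 3 were inside its record, and 8 of the 9 had no BHLHE40 region. The 7 GATA3 regions of the RAG2 window were the same regions apart from the 2 before the RAG1 start.

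DNTT on chromosome 10 had its strongest regions near the far end of the gene. The GATA3 region chr10:96332816-96334019 had a signal value of 59.3 and ranked 1032 of 29009, the second highest GATA3 value around any member. Its summit lay 28831 bp after the start of DNTT and 5299 bp before the end of its record. BHLHE40 was listed at chr10:96332951-96333652 with a signal value of 17.0, rank 4564, and a summit 21 bp away, and H3K27ac at chr10:96333187-96333695 with a −log10 q of 7.14. A weaker pair stood just after the start, at 815 bp for the GATA3 summit and 708 bp for the BHLHE40 summit, with signal values of 8.54 and 6.91 and no H3K27ac. None of the 3 lists had a region over the DNTT start-site window, so the AGATAA printed above lay outside these regions. The other GATA3 regions were 2466, 30177 and 42264 bp before the start, with signal values of 10.8, 18.8 and 11.4. The 15 H3K27ac regions near DNTT had signal values from 1.96 to 3.94 with a median of 2.79, below the 3.31 of the whole list.

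PTCRA on chromosome 6, which encodes the pre-T-alpha chain, had no region of any list inside its record or over its start. Its window held 2 GATA3, 2 BHLHE40 and 6 H3K27ac regions. Both GATA3 regions overlapped BHLHE40 and H3K27ac, and their summits were inside other gene records. One, chr6:42879122-42880542 with a GATA3 signal value of 22.7, was at RPL7L1, a ribosomal protein-like gene, 36002 bp before the PTCRA start. The other, chr6:42928984-42930443 with a GATA3 signal value of 7.46, was in CNPY3 and the read-through record CNPY3-GNMT, 4043 bp beyond the PTCRA record. CNPY3 encodes a chaperone of Toll-like receptors. At that place H3K27ac had a −log10 q of 172 and a signal value of 10.3, the highest of the PTCRA window, and the summits of the 2 factors were 382 bp apart. No region of any list had PTCRA as the nearest protein-coding record to its summit.

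The CD1 genes on chromosome 1 encode lipid-presenting molecules of cortical thymocytes, and their locus held 9 of the 19 shared regions described here. CD1A itself was covered at its start by a GATA3 region, chr1:158247652-158249620, with a signal value of 31.4, rank 3309 of 29009, and a summit 589 bp after the start. This region overlapped 2 BHLHE40 regions. One had its summit 615 bp after the start, 26 bp from the GATA3 summit, and a signal value of 5.18. The stronger one, at a signal value of 9.84, peaked 109 bp before the start. Its summit was 4 bp from the first CANNTG match and 81 bp from the AGATAA in the CD1A window printed above. The GATA3 summit was 779 bp from that AGATAA. H3K27ac at the same start had a −log10 q of 17.0 and a signal value of 3.61, in a region of 571 bp.

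The highest GATA3 value around any member was also in the CD1A window. It belonged to chr1:158286468-158288563, with a signal value of 101.8, rank 237 of 29009, and a summit 29863 bp beyond the CD1A record and inside the record of CD1B. A BHLHE40 region at chr1:158287662-158288551 had its summit 54 bp away and a signal value of 24.1, rank 2130. H3K27ac touched the edge of the GATA3 region only, and its nearest summit was 2027 bp from that of GATA3. The CD1B record, chr1:158285405-158331531, also holds the start of CD1C at 158289923, close beyond the GATA3 summit at 158288132. Which CD1 gene the region belongs to cannot be told from the lists. On the other side, 44525 bp before CD1A and outside genes, GATA3 was listed at chr1:158202768-158204794 with a signal value of 43.4 and BHLHE40 at chr1:158202602-158205310 with a signal value of 31.8. The latter ranked 1165 of 26205 and was the highest BHLHE40 value around any member. H3K27ac there had a −log10 q of 49.8.

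CD1E had no factor region inside its record or over its start, although 14 GATA3 regions surrounded it. The nearest GATA3 summit was 4133 bp from an end of the record and the nearest BHLHE40 summit was 5101 bp from it. H3K27ac covered the start with a region of 1254 bp, chr1:158353005-158354258, that had a −log10 q of 12.6 and a signal value of 2.80, below the median of its list. Of the 14 GATA3 regions, 5 overlapped BHLHE40, and all 5 also overlapped H3K27ac. The closest pair of summits, 4 bp apart, was at chr1:158362303-158363060, where the GATA3 signal value was 20.3 and the BHLHE40 value 10.8. The strongest pair was at the edge of the window, at chr1:158406488-158407601, with signal values of 24.5 for GATA3 and 23.0 for BHLHE40 and summits 52 bp apart.

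**Figure D3:**
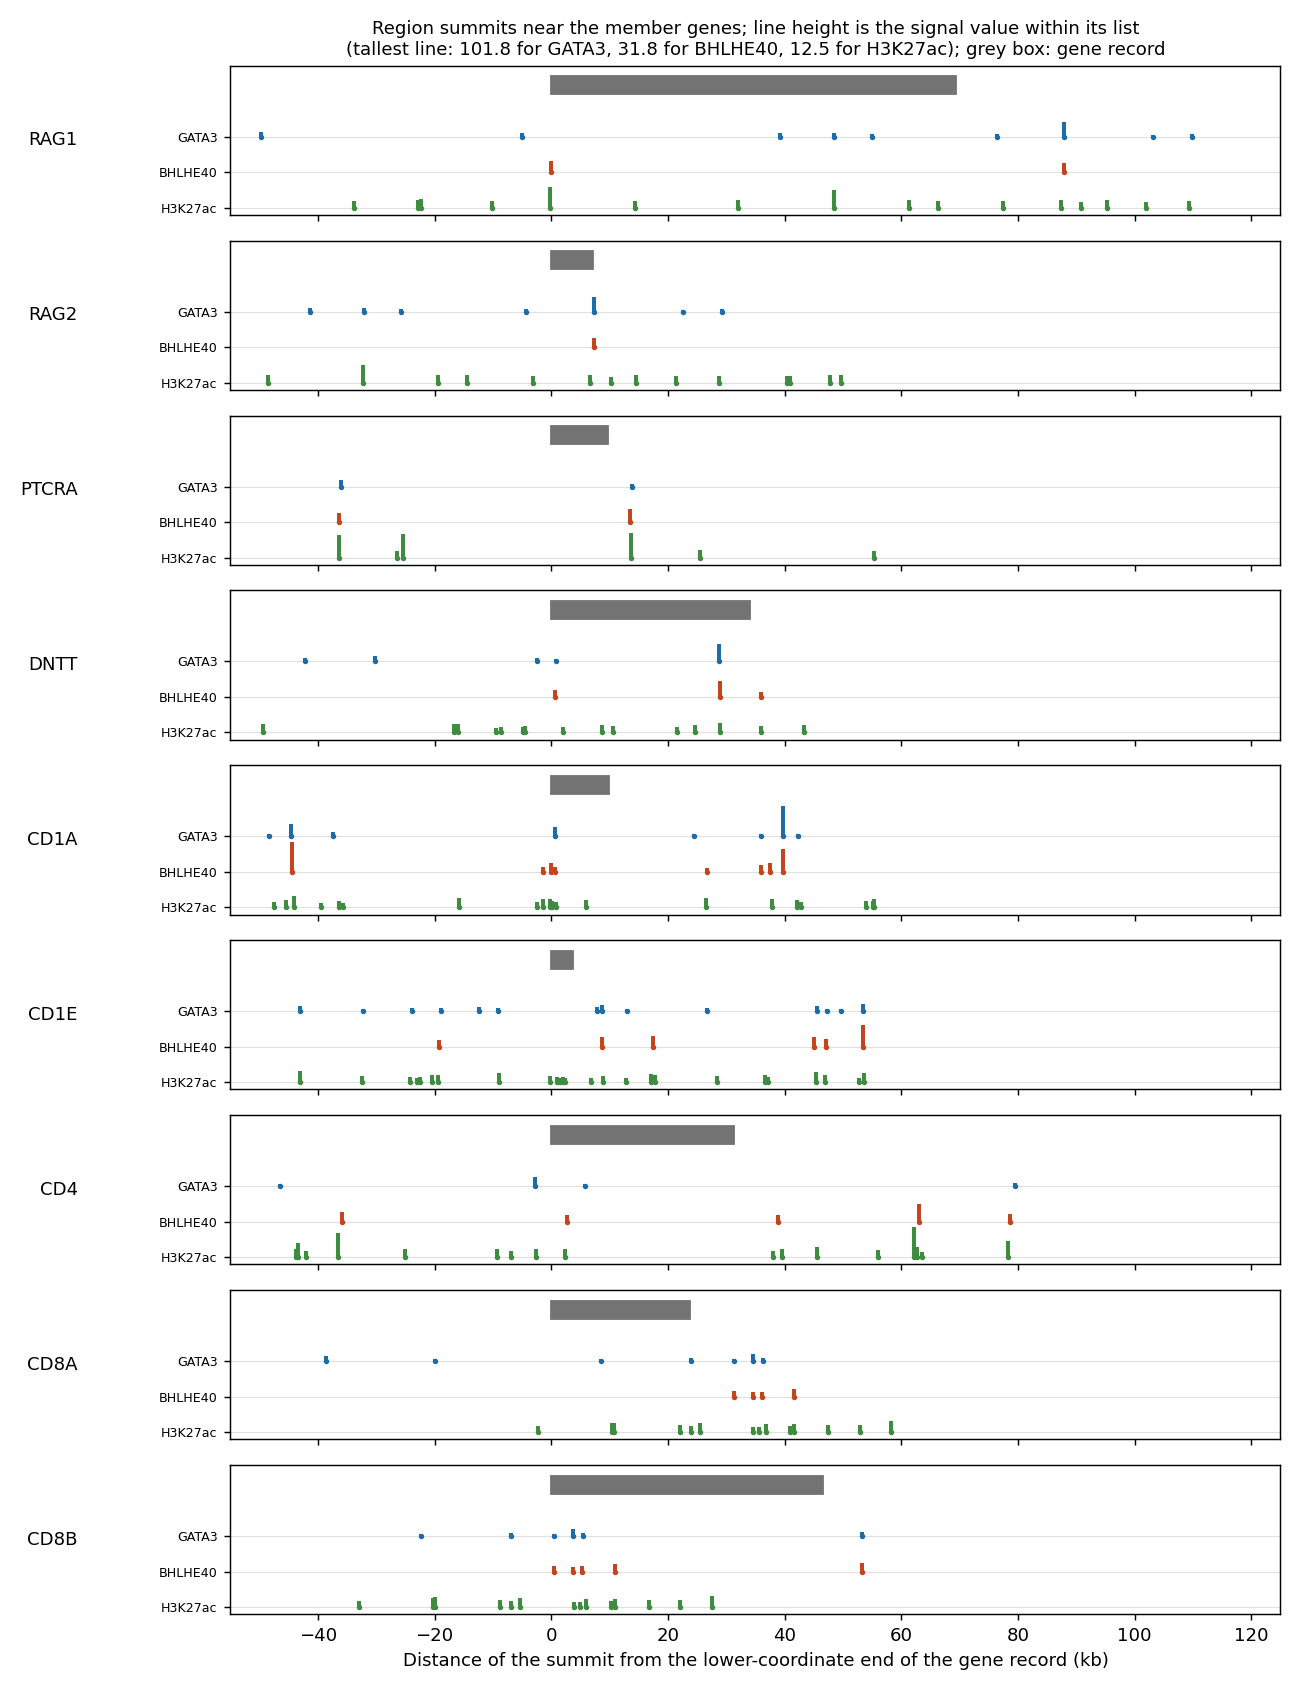
Summits of all regions near each member, by distance from the lower-coordinate end of the gene record in kb; the height of each line is its signal value within its own list (the tallest line is 101.8 for GATA3, 31.8 for BHLHE40 and 12.5 for H3K27ac) and grey boxes are the gene records. The tallest GATA3 lines stand in the CD1A, DNTT, RAG1 and RAG2 rows, and RAG2, PTCRA and CD1E have no factor summit under the grey box.

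CD4 on chromosome 12, the coreceptor for MHC class II, had 4 GATA3, 5 BHLHE40 and 17 H3K27ac regions in its window, with 1 of each inside its record. The strongest GATA3 region, chr12:6786361-6787212, with a signal value of 32.6 and rank 3122 of 29009, peaked 2735 bp outside the lower-coordinate end of the record. It overlapped no BHLHE40 region and 1 H3K27ac region with a −log10 q of 3.39. Inside CD4 there was 1 GATA3 region with a signal value of 8.93, 1 BHLHE40 region with a signal value of 6.90 and 1 H3K27ac region with a −log10 q of 2.95. The strongest H3K27ac regions of the window were beside USP5, in MLF2 and in TPI1, with signal values of 12.5, 10.2 and 6.87 and summits 30987, 36546 and 47072 bp from CD4. The strongest BHLHE40 region, with a signal value of 18.3, was in USP5, which encodes a deubiquitinase. The single place shared by GATA3 and BHLHE40 was in TPI1, a glycolysis gene, with summits 740 bp apart. LAG3, the gene of an inhibitory receptor that also binds MHC class II, lies 11073 bp from CD4, and no factor summit of the window fell inside its record.

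CD8A and CD8B on chromosome 2 encode the chains of the coreceptor for MHC class I and share most of their regions. At the outermost CD8A start, GATA3 was listed at chr2:86808345-86808927 with a signal value of 12.0 and a summit 148 bp before the start. H3K27ac overlapped it with a −log10 q of 2.07, and there was no BHLHE40 region. The strongest GATA3 region of both windows, chr2:86818784-86819927, lay inside CD8B, with a signal value of 24.3 and a BHLHE40 summit 10 bp away. Next to it, chr2:86815674-86816210 had summits 17 bp apart, and its GATA3 summit was 492 bp inside the lower-coordinate end of the CD8B record. The 4 BHLHE40 regions found in both windows had signal values of 5.22 to 8.07, and 3 of them ranked from 22881 to 23793 of 26205. Another, in the CD8B window only, lay at chr2:86868490-86868904 in the pseudogene ANAPC1P1 and ranked 12987 of 26205, close to the list's median. H3K27ac signal values around both genes ran from 2.16 to 4.54, the highest inside CD8B. The summits of these 3 GATA3 regions also lie in the record of LOC105374846, a long noncoding RNA gene.

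Both factors met at 19 of the 50 GATA3 regions (38.0%, 95% Wilson interval 25.9% to 51.8%), against 48.7% of the whole GATA3 list. Every member had such a region in its window, against 60.5% of protein-coding records. A GATA3 region that overlapped both other lists was found for 8 of the 9 members, CD4 being the exception, against 55.2% of protein-coding records. At CD8A and CD8B it rested on H3K27ac regions with a −log10 q of 1.93 and 1.91. With a −log10 q of at least 5 required of H3K27ac, 6 members had such a region. The share of all records was not taken at that setting. By locus, the 19 regions were 9 at CD1, 4 at CD8, 2 at PTCRA, 2 at DNTT, 1 at RAG and 1 at CD4. The distance between summits ranged from 4 to 740 bp with a median of 52 bp, and it was at most 10 bp in 3 of the 19 and at most 50 bp in 9.

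**Figure D4:**
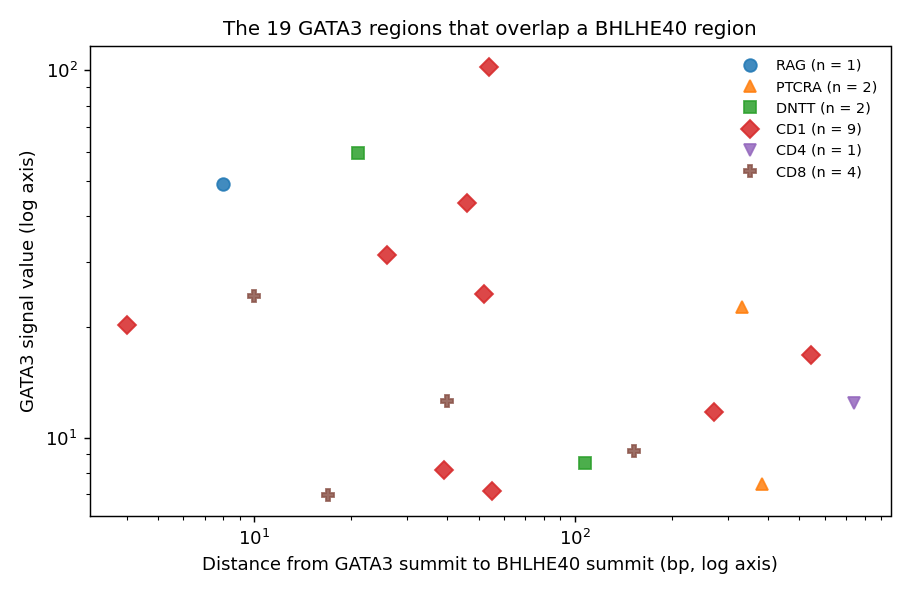
The 19 GATA3 regions that overlap a BHLHE40 region, by distance between the 2 summits in bp (horizontal log axis) and GATA3 signal value (vertical log axis), with 1 symbol per locus. The RAG point, 1 CD8 point and 1 CD1 point sit at 10 bp or less, and the CD4 point at 740 bp is farthest right.

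From the side of BHLHE40, 21 of 31 regions overlapped GATA3 (67.7%, interval 50.1% to 81.4%) against 53.0% of the whole list, and 26 of 31 overlapped H3K27ac (83.9%, interval 67.4% to 92.9%) against 76.4%. For GATA3, 23 of 50 regions overlapped H3K27ac (46.0%, interval 33.0% to 59.6%) against 49.1%. For these shares the value of the whole list lies inside the counting interval around the members. From the side of H3K27ac, 29 of 117 regions overlapped GATA3 (24.8%, interval 17.8% to 33.3%) against 15.3% of the whole list, which lies outside the interval. BHLHE40 was overlapped by 33 (28.2%, interval 20.8% to 37.0%) against 22.9%. These H3K27ac regions had a median width of 317 bp, against 232 bp in the whole list. A link between width and these shares was not tested. Neighbouring H3K27ac regions can lie on 1 GATA3 region, as 3 did at the CD1A start. They are therefore not independent, and the intervals are not tests.

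The other genes of the pathway were taken as 43 genes in 4 lists. Of 10 genes of recombination and end joining, which act with RAG and DNTT, 7 had a GATA3 region within 50 kb. A BHLHE40 region was found for 9 and an H3K27ac region for 10. The shares over all protein-coding records were 76.1%, 80.0% and 92.6%. Over the start-site windows of these genes, GATA3 was listed for 5, BHLHE40 for 8 and H3K27ac for 9 of the 9 with a listed start. The members had 3, 3 and 4 of 7, and all protein-coding genes 20.6%, 47.4% and 51.7%. HMGB1, a DNA-bending cofactor of RAG, had the most regions, with 12 GATA3 and 16 BHLHE40, and POLL, a repair polymerase, had 0 of either. Of 10 early thymocyte genes, 9 had a GATA3 and 9 a BHLHE40 region, against 76.1% and 80.0% of protein-coding records. CD44, an adhesion receptor, had the most, with 20 and 15, and KIT, the stem cell factor receptor, had 1 and 0. NOTCH3, a Notch receptor, was the 1 early gene with 0 GATA3 regions.

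All 10 double-positive genes had regions of both factors and a place listed for all 3 targets, against 76.1% of protein-coding records for GATA3, 80.0% for BHLHE40 and 55.2% for all 3. CD1B, CD1C and CD1D, whose windows overlap those of the members and hold some of the same regions, had 15, 11 and 6 GATA3 regions, and CCR9, a thymic chemokine receptor, had 12 BHLHE40 regions. Their median was 8 GATA3 and 6.5 BHLHE40 regions. All 13 genes of selection and lineage choice also had both factors and a place listed for all 3 targets. LEF1 was highest among them, at 17 GATA3 and 22 BHLHE40 regions. CD27, a costimulatory receptor, had 1 GATA3 region, and ITM2A, a membrane protein of maturing thymocytes, had 1 BHLHE40 region. The members' median of 7 GATA3 regions was below that of the double-positive list, 8. It was above those of the recombination list, 3.5, the early list, 5.5, and the selection list, 6. The members' median of 4 BHLHE40 regions equalled that of the recombination list, 4. It was below those of the early list, 4.5, the double-positive list, 6.5, and the selection list, 7.

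By the distance between log2(count + 1) values over the 3 lists, the gene most like CD4 among these 43 was XRCC6, a subunit of the end-joining factor Ku, at 0.170, with 4 GATA3, 5 BHLHE40 and 15 H3K27ac regions. CD34 was most like CD8A, CD8B and DNTT, at 0.264, 0.319 and 0.401. SATB1 was most like CD1A, at 0.342, CD1D most like RAG1 and RAG2, at 0.515 and 0.642, and AQP3 most like PTCRA, at 0.781. The measure rests on 3 counts per gene and says nothing of shared function.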

How the data were processed

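ChIP-seq peak lists for GATA3, BHLHE40 and H3K27ac in the 3 control lentivirus groups (2 samples each, pooled into 1 list per group) were used. The other 16 groups were not analysed here. Per the submitters' processing notes, bcl2fastq 2.20, MACS2 and the hg38 build were used; the aligner, filters and use of input are not given in the sources used here. The deposited score of the factor lists starts at 540, and their names give an irreproducible discovery rate of 0.05, and the name of the H3K27ac list says pooled. The signal value and the −log10 q-value of each region are the authors' deposited values. Coordinates are 1-based.

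Gene records and start sites are RefSeq's for GRCh38.p14, matched by symbol: 9 of 9 members had a record and 7 a start site. A region belonged to a window when it overlapped it by at least 1 bp, and 2 regions were shared when they overlapped by at least 1 bp. The edge of the 50 kb window fell between a GATA3 region 49267 bp from RAG1 (signal value 16.7) and one 50090 bp from CD1E (signal value 2.45). For every member, all regions were counted and up to 3 per list with the highest signal value, those within 1 kb of a record end and those listed for all 3 targets were open to description. The other genes were named by shared windows or by the most or fewest regions of their list; NOTCH3 and LAG3 were named after their values were seen. The gene most like CD1E is not reported here. In the 250 bases before each start, GATA letters (AGATAA and TGATAA), E-boxes (CANNTG and its form CACGTG), RUNX letters (TGTGGT and TGCGGT) and MYB letters (AACNG) were searched on both strands. The members and gene lists were chosen with earlier results of these data known. No test was made, since no value per sample was used. Counting was checked on simulated regions. Alternatives changed the window, the assignment, the thresholds and the overlap rule. Scripts ran in Python 3.11.15 with pandas 2.3.3, numpy 2.4.6 and scipy 1.17.1, and plots were drawn with matplotlib 3.10.9.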

Additional observations from a re-analysis of the deposited data

How the results depend on the processing

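Of 68 alternative values over 11 results and 8 settings, 53 stayed within 1.5 times the reported count or within the interval of the reported share. The window moved the totals: 23 GATA3, 17 BHLHE40 and 58 H3K27ac regions lay within 10 kb, and 48 BHLHE40 and 182 H3K27ac regions within 100 kb. When each region was given only to the protein-coding record nearest to its summit, 20 GATA3, 14 BHLHE40 and 53 H3K27ac regions were left. Then 5 members kept a BHLHE40 region, 4 a GATA3 region shared with BHLHE40 and 4 a place listed for all 3 targets; RAG1, RAG2, PTCRA and CD8A had no BHLHE40 region left. Requiring a −log10 q of at least 5 left 52 H3K27ac regions and lowered the share of BHLHE40 regions on H3K27ac to 64.5%. Requiring the summit to lie in the H3K27ac region lowered the share to 28% for GATA3 and 61.3% for BHLHE40. The window, nearest-record and q settings count fewer or more regions, and the summit setting keeps the regions but narrows what counts as an overlap.

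No paired analysis was possible because the lists hold no values per sample, and leaving out a replicate was not run for the same reason. The unknown depth limits every count, since weak regions are listed more readily in deeper data.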

Other observations

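Start-site letters were also counted over all 35116 RefSeq start-site windows, as a frame for the printed promoters. AGATAA was held by 7.14% of the 4927 windows overlapped by a GATA3 region and by 9.50% of the 30189 without one, and TGATAA by 4.49% and 7.01%. CACGTG, the E-box form linked to BHLHE40, was held by 9.78% of the windows overlapped by BHLHE40 and by 4.69% of the others, and CANNTG by 52% and 66.5%. Start sites of 1 gene can overlap, so these windows are not independent. Among the members, RAG2 and CD1A combined AGATAA with a GATA3 region over the window. The match lay 106 bp from the GATA3 summit in RAG2 and 779 bp from it in CD1A. CD8A had the region without AGATAA or TGATAA, and DNTT had AGATAA without a region. Other letters with GATA, such as the AGATAG in the printed CD8A window, were not searched. CACGTG was in none of the members' 11 start-site windows. TGTGGT, letters bound by RUNX factors, was in the windows of CD1A, where it overlaps a CANNTG match, and CD1E, against 11% of all start-site windows.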
